A study of Homo sapiens with 5 samples.

Results

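Assembly factors of the respiratory chain are proteins that build the complexes of the inner mitochondrial membrane without being part of the finished enzymes. Here 45 of them, taken as a list and grouped by the complex they serve, were followed in COV434 cells, a line that the labels describe as a human ovarian granulosa tumour cell and that others have since reassigned to small cell carcinoma of the ovary, hypercalcaemic type. All 45 were found among the 30631 genes of the deposited files, 13 for complex I, 6 for complex III, 22 for complex IV, 3 for complex V, and OXA1L, which serves several complexes. Messenger RNA had been sequenced in 2 libraries of control cells and 3 libraries of cells given 3-nitropropanoic acid (3-NP), an irreversible inhibitor of succinate dehydrogenase, which is complex II of the chain. No genotype, dose, time, vehicle or culture condition is given for either group, and nothing says that the libraries came from separate cultures, so the p-values measure the spread between these libraries, which may be technical. Every title names COV434, while the cell line field counts upward to COV438 from sample to sample, and all libraries were taken as COV434.

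The respiratory chain complexes are assembled from subunits encoded in the nucleus and in mitochondrial DNA. Assembly factors hold partly built modules together, insert iron-sulfur clusters, copper and heme A, and help membrane subunits into the inner membrane. Inherited defects of many of them cause mitochondrial disease through loss of a complex, among them Leigh syndrome. 3-NP acts on complex II, whose own assembly factors (the SDHAF proteins) are not members of the set and are given only for comparison.

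Levels are FPKM, that is reads scaled to gene length and sequencing depth, so that levels of different genes can be set side by side. The depth worked back from the values was 17838000 to 18883000 reads per library, at which 3 reads on a gene of 2 kb correspond to 0.0794 to 0.0841 FPKM, and this covers counting error only. Changes are differences of log2(FPKM + 1), 3-NP minus control, with the standard error (SE) and the Benjamini-Hochberg adjusted p of limma over all 11858 genes tested, and a gene was called at an adjusted p under 0.05. This scale understates changes of low genes. Granulosa markers were mixed. FOXL2, NR5A1, INHBA, INHBB, GATA4, STAR and AMH reached 1 FPKM in 2 or more libraries, while CYP19A1, FSHR, AMHR2 and WT1 lay between 0 and 0.0753 FPKM and INHA and HSD17B1 stayed below 1 FPKM. FOXL2, INHBB and NR5A1 fell, and the other 4 of the 7 that were tested were not called. Summed over the 13 markers, the level was 45.9 and 49.4 FPKM in control cells against 33, 30.2 and 30.6 with 3-NP; the part of this difference in the results below was not tested. Markers of immune (PTPRC), endothelial (PECAM1, VWF, CDH5), theca (CYP17A1) and erythroid (HBB) cells lay between 0 and 0.311 FPKM. The slope of log2(FPKM + 1) with each doubling of gene length came to 0.0809 and 0.00397 for control libraries, and to 0.00837, -0.0125 and -0.0807 for those with 3-NP. Of the called members, NDUFAF6 and UQCC1 were not called once this trend was removed. In bulk RNA, fewer cells of a kind and less RNA per cell cannot be told apart.

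The comparison asked which assembly factor transcripts differed between cells with and without 3-NP. Messages for COA7 and TACO1, both factors of cytochrome c oxidase (complex IV), were 2.95 and 2.77 times lower in 3-NP, and that for TMEM70, a factor of ATP synthase (complex V), was 2.04 times higher. The mean ± SD over 2 control and 3 3-NP libraries was 8.33 ± 1.23 and 2.82 ± 0.508 FPKM for COA7, 11.7 ± 1.77 and 4.21 ± 0.422 FPKM for TACO1, and 10.1 ± 1.16 and 20.5 ± 1.06 FPKM for TMEM70. These 3 were called in each of the 15 alternative fits. Of the 45 members 40 reached 1 FPKM in at least 2 libraries and were tested, and in all 9 fell and 3 rose. The 12 called members are 30% of those tested, against 40.8% of all genes tested (percent called), with 15.5% of all genes higher and 25.2% lower. Thus 22.5% of the tested members were lower and 7.5% higher, and neither share was above that of all genes. Control and 3-NP values were fully separate for 26 of the 40, or 65%, against 64.2% of all genes tested. The median change was -0.18 over the 40 members and -0.11 over all genes tested.

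Scaling mattered for the split of directions. Median-of-ratios scaling moved the median of all genes by 0.10, from -0.11 to -0.01, and lower genes made up 51.7% of all calls in place of 61.9%. The members then split into 6 higher and 6 lower. Quantile normalization gave 5 higher and 5 lower, removal of the gene length trend 5 and 9, and equal FPKM totals 1 and 10. Relative to the median of all genes, the members' median differed by -0.07 as deposited, -0.07 with median-of-ratios scaling and -0.0026 after quantile normalization. The sign of each of the 12 called changes was the same in all 15 alternatives, and 32 of the 40 tested members kept their sign. The other 8, all not called, were NDUFAF3, NDUFAF4, FOXRED1, UQCC2, COX15, COX19, COA5 and ATPAF1. Leaving out a library gave 1 higher and 4 lower members for control replicate 1, and 1 and 2 for control replicate 2. It gave 6 and 7 for 3-NP replicate 1, 1 and 4 for 3-NP replicate 2, and 1 and 10 for 3-NP replicate 3.

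**Figure D1:**
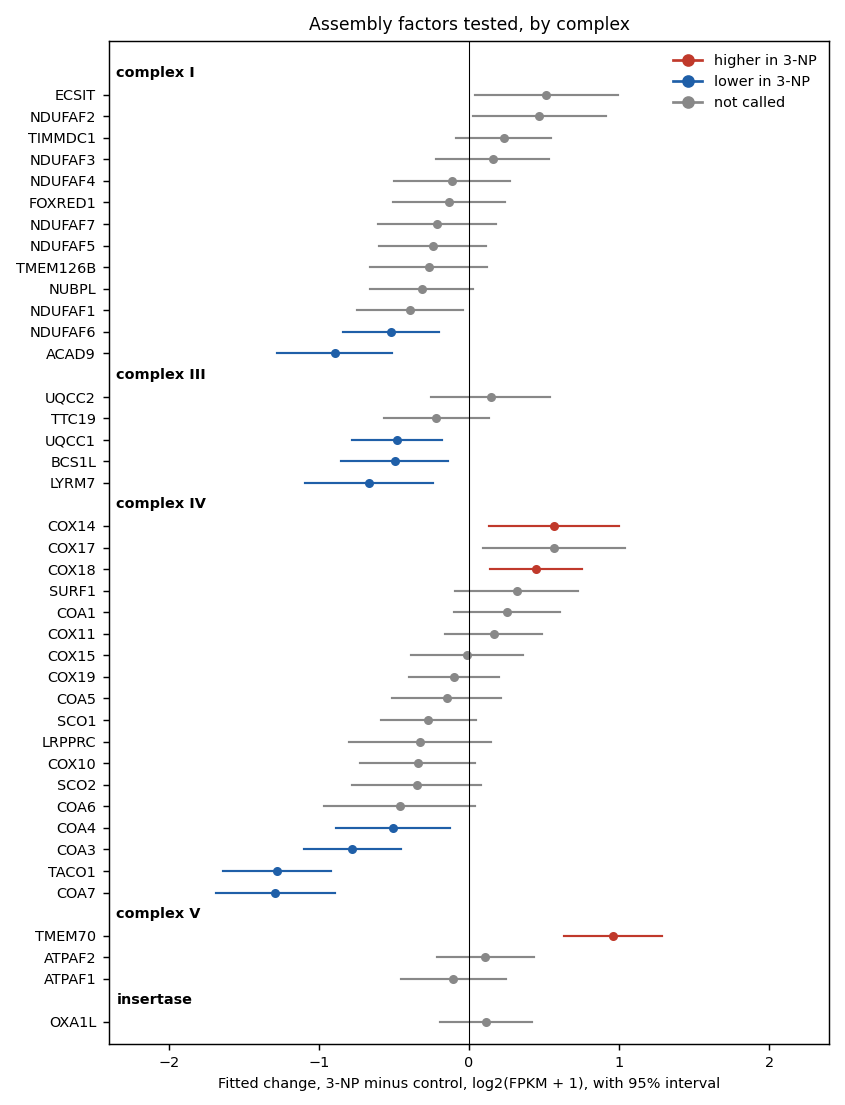
Fitted change of the 40 tested assembly factors, 3-NP minus control on the log2(FPKM + 1) scale, with 95% intervals, grouped by complex. Points are fitted changes and lines are intervals, red for higher, blue for lower and grey for not called. The changes ran from -1.29 for COA7 to 0.96 for TMEM70. Of the 40 members 26 lay below 0, against 6734 of all 11858 genes tested. After quantile normalization 20 of the 40 lay above 0.

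Promoter sequences, taken as 250 bases before to 50 after each start from RefSeq (build GRCh38.p14), were matched by symbol for 39 of the 45 members. They were searched on both strands for motifs of factors known to regulate nuclear genes of the respiratory chain. The core of NRF1 (nuclear respiratory factor) was in 7 of the 39, or 17.9%, against 5.78% of all 35116 promoters in the table, and with an inner base left free, which takes in every match of the core, the shares were 17.9% and 8.32%. The ETS core CCGGAAG, bound by GABPA among others, was in 13, or 33.3%, against 10.3%. The cyclic AMP response element TGACGTCA was in 2, or 5.13%, against 1.85%, the YY1 core AAGATGGC was in 3, or 7.69%, against 2.89%, and the site TCAAGGTCA of the estrogen-related receptors was in 0 of 39, against 0.353%. The table of all promoters also holds genes that are not protein-coding, no test was made, and a match is a description of the letters only. By call, the NRF1 core was in 1 of 2 promoters of higher members, 2 of 8 of lower members and 4 of 25 of members not called. The ETS core was in 0 of 2, 2 of 8 and 10 of 25. The 250 bases before the start are shown for the called members with an NRF1 core and for the most lowered members, which had no motif of the 5 there. They are given 5′ to 3′ on the gene's strand, in lower case with matches to the NRF1 core and the cyclic AMP response element in capitals. Positions are counted back from the start, whose preceding base is -1. ACAD9 lies at chr3:128879370-128879619 (plus strand), with NRF1 cores beginning at -196 and -46 and the cyclic AMP response element at -158. UQCC1 lies at chr20:35411974-35412223 (minus strand), with cores at -115 and -91. COX18 lies at chr4:73069717-73069966 (minus strand), with cores at -47 and -18. COA7 lies at chr1:52698348-52698597 (minus strand) and TACO1 at chr17:63600645-63600894 (plus strand).
ACAD9: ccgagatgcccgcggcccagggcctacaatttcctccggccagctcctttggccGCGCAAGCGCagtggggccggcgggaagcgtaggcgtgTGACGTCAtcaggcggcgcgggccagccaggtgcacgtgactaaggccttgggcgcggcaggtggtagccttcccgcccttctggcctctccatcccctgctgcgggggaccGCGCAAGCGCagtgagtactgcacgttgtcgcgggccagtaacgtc
UQCC1: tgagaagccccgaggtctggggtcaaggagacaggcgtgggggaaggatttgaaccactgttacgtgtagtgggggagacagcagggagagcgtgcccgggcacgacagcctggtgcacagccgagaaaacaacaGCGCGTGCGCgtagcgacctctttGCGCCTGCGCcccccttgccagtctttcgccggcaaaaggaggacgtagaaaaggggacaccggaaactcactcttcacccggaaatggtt
COX18: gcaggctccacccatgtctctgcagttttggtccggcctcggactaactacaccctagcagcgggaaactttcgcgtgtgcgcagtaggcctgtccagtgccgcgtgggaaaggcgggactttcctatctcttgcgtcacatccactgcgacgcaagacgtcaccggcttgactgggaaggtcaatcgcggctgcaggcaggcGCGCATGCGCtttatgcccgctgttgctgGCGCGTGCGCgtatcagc
COA7: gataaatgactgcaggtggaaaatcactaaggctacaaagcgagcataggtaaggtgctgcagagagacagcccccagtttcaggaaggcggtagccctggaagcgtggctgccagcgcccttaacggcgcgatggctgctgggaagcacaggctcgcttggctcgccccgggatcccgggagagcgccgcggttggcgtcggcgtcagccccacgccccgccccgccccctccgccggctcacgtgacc
TACO1: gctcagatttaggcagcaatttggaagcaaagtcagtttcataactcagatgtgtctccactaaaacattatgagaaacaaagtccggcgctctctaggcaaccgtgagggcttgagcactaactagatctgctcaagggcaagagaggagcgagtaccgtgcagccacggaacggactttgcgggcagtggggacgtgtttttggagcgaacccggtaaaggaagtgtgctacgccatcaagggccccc
These 3 called members with NRF1 cores did not share a direction, since ACAD9 and UQCC1 fell while COX18 rose.

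Among factors of complex I (NADH dehydrogenase), 2 of 13 fell and none rose by limma's test (5 of 13 had an unadjusted p under 0.05), with a median change of -0.21. The share lower was 15.4%, against 25.2% of all genes tested. Scaling changed these counts. Median-of-ratios scaling gave 2 higher and 2 lower, and removal of the gene length trend 1 and 2. Quantile normalization gave 1 and 1 with a median of -0.04, and equal FPKM totals 0 and 3 with a median of -0.29. Without 3-NP replicate 1 there were 2 and 2. ACAD9 (chromosome 3) is, with NDUFAF1, ECSIT, TMEM126B and TIMMDC1, part of the mitochondrial complex I assembly complex that builds the membrane arm, and belongs to the acyl-CoA dehydrogenases. Its level was 8.90 and 9.83 FPKM in control cells against 5.18, 3.73 and 4.91 in 3-NP. Every 3-NP library lay below both controls, with a change of -0.90 ± 0.16 SE (adjusted p = 0.00529). Over the 15 alternatives its adjusted p ran from 0.0037 to 0.0540, the latter without control replicate 2, which ended the call. NDUFAF6 (chromosome 8), a factor of the early assembly of the peripheral arm, was lower still in level. It stood at 1.72 and 1.62 FPKM in control cells against 0.769, 0.912 and 0.895 in 3-NP, with no overlap, from 93 to 206 reads per library. NDUFAF6 reached 1 FPKM only in the 2 control libraries, so it entered the test through the group in which it was higher. An alternative with a higher FPKM threshold did not test it. The change was -0.52 ± 0.14 SE (adjusted p = 0.0205). Without a low-value filter the adjusted p was 0.0595, which ended the call. This call was the less stable, being lost in 7 of 14 alternatives, among them those without control replicate 1 (adjusted p = 0.125), control replicate 2 (0.0889) or 3-NP replicate 2 (0.0506), and with the gene length trend removed (0.0625).

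None of the 4 partners of ACAD9 named above for the same assembly complex was called. NDUFAF1, which binds early intermediates of the membrane arm, stood at 7.63 and 9.77 FPKM in control cells against 6.18, 6.14 and 6.68 in 3-NP, without overlap but short of the threshold (change -0.40 ± 0.15 SE, adjusted p = 0.0710). It passed with equal FPKM totals (adjusted p = 0.0262) and with the gene length trend removed (0.0308), and its range over the alternatives was 0.0262 to 0.402. ECSIT, an adaptor that also acts in innate immune signalling, had values on the other side. They were 8.37 and 11.6 FPKM in control cells against 11.8, 15.2 and 17.1 in 3-NP, with a change of 0.51 ± 0.20 SE (adjusted p = 0.0789). The highest control and the lowest 3-NP library of ECSIT nearly met, and without 3-NP replicate 1 its adjusted p was 0.0265, as against 0.422 without control replicate 1. TIMMDC1, a membrane protein of the same complex, had the highest mean level of all 45 members, with 34.4 and 36.0 FPKM in control cells against 42.3, 38.7 and 43.5 in 3-NP (change 0.23 ± 0.13 SE, adjusted p = 0.205). For TMEM126B the change was -0.27 ± 0.17 SE (adjusted p = 0.231) with overlapping groups. A difference between ACAD9 and its partners was not tested.

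The remaining complex I factors did not pass either. NDUFAF2, which acts late and stays on the complex until the NADH-binding module is added, stood at 19.0 and 25.4 FPKM in control cells against 26.4, 30.6 and 35.9 in 3-NP (change 0.47 ± 0.19 SE, adjusted p = 0.0854). Its groups were close but separate, and it was called without 3-NP replicate 1 (adjusted p = 0.0413) and with median-of-ratios scaling (0.0412). NDUFAF3 and NDUFAF4, which work as a unit on the quinone-binding module, had fitted differences of 0.16 and -0.11, each with overlapping groups. The differences were -0.24 for NDUFAF5, which hydroxylates an arginine of NDUFS7, and -0.21 for NDUFAF7, a methyltransferase. The difference was -0.13 for FOXRED1, an oxidoreductase-like factor, and -0.32 for NUBPL, which takes part in supplying iron-sulfur clusters to complex I. The interval of NDUFAF2 ran from 0.02 to 0.91. For the factors named after it, intervals reached down to -0.66 for NUBPL and up to 0.53 for NDUFAF3. Differences up to these bounds are compatible with the 5 libraries.

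Of the 5 tested factors of complex III (the cytochrome bc1 complex), 3 fell and none rose, with a median of -0.48. Lower members were 60%, against 25.2% of all genes tested, and 4 of 5 (80%) did not overlap between groups, against 64.2%. The 3 act at different steps. UQCC1 (chromosome 20) binds newly made cytochrome b together with UQCC2. It stood at 9.17 and 9.29 FPKM in control cells against 6.45, 6.08 and 6.48 in 3-NP, with tight and separate groups (change -0.48 ± 0.13 SE, adjusted p = 0.0216). BCS1L, the AAA-type ATPase that moves the Rieske iron-sulfur protein across the inner membrane into the complex, was at 4.59 and 5.53 FPKM in control cells against 3.21, 2.95 and 3.73 in 3-NP (change -0.50 ± 0.15 SE, adjusted p = 0.0359). LYRM7, the chaperone that holds the Rieske protein in the matrix before that step, was at 2.69 and 1.93 FPKM in control cells against 1.38, 1.06 and 0.803 in 3-NP (change -0.67 ± 0.18 SE, adjusted p = 0.0233). For both Rieske factors each 3-NP library was below each control.

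These 3 calls were all lost when either control was left out. For UQCC1, BCS1L and LYRM7 in turn, adjusted p was 0.123, 0.0956 and 0.177 when control replicate 1 was left out, and 0.123, 0.227 and 0.0521 when control replicate 2 was. Without 3-NP replicate 2 it was 0.0660, 0.0968 and 0.0542, and without 3-NP replicate 1 BCS1L had 0.0535. With the gene length trend removed UQCC1 was not called (0.0820). Quantile normalization left none of the 3 called (0.0641, 0.153 and 0.0573), and median-of-ratios scaling left LYRM7. The complex III median was below 0 in all 15 alternatives, at -0.33 after quantile normalization and -0.37 with median-of-ratios scaling. UQCC2, the partner of UQCC1, was at 4.48 and 6.30 FPKM in control cells against 5.39, 6.28 and 6.34 in 3-NP, with full overlap (change 0.14 ± 0.17 SE, adjusted p = 0.524). TTC19, which helps to clear fragments of the Rieske protein, was at 5.21 and 5.28 FPKM in control cells against 3.77, 4.42 and 4.99 in 3-NP (change -0.22 ± 0.15 SE, adjusted p = 0.275). UQCC3, which stabilises cytochrome b, was under the filter at 0.756 and 0.912 FPKM in control cells against 0.243, 0.626 and 0.399 in 3-NP.

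Complex IV (cytochrome c oxidase) has the most factors. Of 18 tested 4 fell (22.2%, against 25.2% of all genes tested) and 2 rose (11.1% against 15.5%), with a median of -0.21. The groups did not overlap for 13, or 72.2%, against 64.2% of all genes tested. The factors that act on the COX1 subunit, the first to be made in the mitochondrion, moved in both directions. TACO1 (chromosome 17), which activates translation of the COX1 message, was at 10.4 and 12.9 FPKM in control cells against 4.69, 3.91 and 4.01 in 3-NP. All 3-NP libraries lay far below both controls, and the change was -1.28 ± 0.15 SE (adjusted p = 0.00122, at most 0.0202 over the alternatives). COA3, which binds new COX1 with COX14, was at 23.1 and 26.5 FPKM in control cells against 13.6, 14.8 and 13.6 in 3-NP. Its change was -0.78 ± 0.14 SE (adjusted p = 0.00468), and leaving out control replicate 2 brought it to 0.0509, the only alternative in which it was not called. COX14 itself rose, from 6.01 and 8.36 FPKM in control cells to 9.43, 11.1 and 12.7 with 3-NP (change 0.57 ± 0.19 SE, adjusted p = 0.0449). The COX14 call was lost in 8 of 15 alternatives, among them those without control replicate 1 (0.301), control replicate 2 (0.0585), 3-NP replicate 2 (0.0931) or 3-NP replicate 3 (0.0939) and with equal FPKM totals (0.0551). LRPPRC, which stabilises mitochondrial messages, was at 12.1 and 9.70 FPKM in control cells against 7.77, 10.9 and 7.06 in 3-NP, with overlap (change -0.33 ± 0.20 SE, adjusted p = 0.227). COA1, which takes part in the same early step, had a difference of 0.25 ± 0.15 SE (adjusted p = 0.218).

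The factors with a copper, heme or membrane insertion role mostly did not pass. COX18, the insertase for the tail of COX2, was at 3.05 and 2.86 FPKM in control cells against 4.60, 4.26 and 4.29 in 3-NP, with narrow groups that did not overlap (change 0.44 ± 0.13 SE, adjusted p = 0.0315). Leaving out control replicate 1 (0.137), control replicate 2 (0.174), 3-NP replicate 2 (0.0665) or 3-NP replicate 3 (0.0600) ended this call, as did equal FPKM totals (0.0708). Of the copper carriers, COX17, which hands copper to SCO1 and COX11, was at 9.77 and 12.9 FPKM in control cells against 14.5, 16.04 and 21.4 in 3-NP. It did not overlap but missed the threshold (change 0.57 ± 0.20 SE, adjusted p = 0.0582), and was called without 3-NP replicate 1 (0.0321), with median-of-ratios scaling (0.0301) and with the length trend removed (0.0191), in a range of 0.0191 to 0.329. SCO1 and SCO2, which carry copper to COX2, had differences of -0.27 ± 0.13 and -0.35 ± 0.18 SE (adjusted p = 0.144 and 0.165), COX11, which supplies COX1, of 0.16, and COX19 of -0.10. COA6, a further copper factor at 6.28 and 8.52 FPKM in control cells against 4.47, 4.22 and 6.72 with 3-NP, had a difference of -0.46 ± 0.22 SE (adjusted p = 0.123), was called without 3-NP replicate 3 (0.0271) and with the length trend removed (0.0377), and had overlapping groups. Of the heme A enzymes COX10 and COX15, COX10 had a difference of -0.34 ± 0.16 SE (adjusted p = 0.131) and COX15 of -0.02 ± 0.16 SE (0.941). SURF1, which is linked to heme A insertion and had the highest mean level among complex IV factors, was at 16.02 and 21.9 FPKM in control cells against 25.5, 21.0 and 24.5 in 3-NP (change 0.32 ± 0.18 SE, adjusted p = 0.185).

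Among the other factors of complex IV, COA7 (chromosome 1), a soluble protein of the intermembrane space built of Sel1-like repeats, had the lowest change of all members. It was at 9.19 and 7.46 FPKM in control cells against 2.35, 3.36 and 2.74 in 3-NP, with every 3-NP library well below both controls. The change was -1.29 ± 0.17 SE (adjusted p = 0.00169), and over the 15 alternatives the adjusted p was at most 0.0272, without control replicate 1. COA4, a small protein of the intermembrane space with CX9C motifs, was at 19.7 and 25.8 FPKM in control cells against 15.1, 14.6 and 17.1 in 3-NP (change -0.51 ± 0.16 SE, adjusted p = 0.0419). Its call was lost in 7 of 15 alternatives, among them those without control replicate 1 (0.0583), control replicate 2 (0.273), 3-NP replicate 1 (0.0614) or 3-NP replicate 2 (0.112) and with median-of-ratios scaling (0.109). COA5, of the same protein family, had a difference of -0.15 ± 0.15 SE (adjusted p = 0.462).

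**Figure D2:**
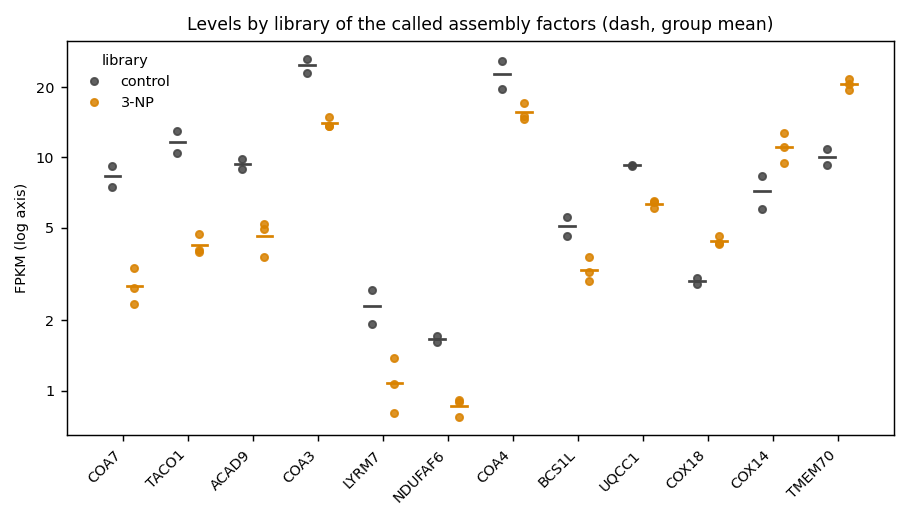
FPKM on a log axis in each library for the 12 called assembly factors, ordered by fitted change. Grey points are the 2 control libraries, orange points the 3 libraries of 3-NP cells and dashes the group means. In none of the 12 did the groups overlap, and the gap was widest for COA7, TACO1 and TMEM70.

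In complex V (ATP synthase), TMEM70 (chromosome 8), a membrane protein needed to assemble the ring of c subunits, rose. It was at 9.26 and 10.9 FPKM in control cells against 21.6, 19.5 and 20.6 in 3-NP, with a change of 0.96 ± 0.14 SE (adjusted p = 0.00236). The lowest 3-NP library was well above the highest control, and over the 15 alternatives the adjusted p was at most 0.0327, without control replicate 1. The factors of the catalytic head did not pass. ATPAF1, the chaperone of the beta subunit, was at 6.98 and 6.64 FPKM in control cells against 7.28, 5.82 and 5.78 in 3-NP (change -0.10 ± 0.15 SE, 95% interval -0.46 to 0.25, adjusted p = 0.600). ATPAF2, the chaperone of the alpha subunit, was at 2.44 and 2.82 FPKM in control cells against 2.93, 2.72 and 3.08 in 3-NP (change 0.11 ± 0.14 SE, 95% interval -0.22 to 0.43, adjusted p = 0.560). OXA1L, the insertase that places mitochondrially made subunits of several complexes in the membrane, was at 19.4 and 21.6 FPKM in control cells against 22.4, 22.6 and 21.6 in 3-NP (change 0.11 ± 0.13 SE, 95% interval -0.20 to 0.42, adjusted p = 0.518).

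Besides UQCC3, 4 members, all of complex IV, were below the filter and were not tested. COX16 was at 0.143 and 0.843 FPKM in control cells against 0.341, 0.432 and 0.399 in 3-NP. COX20, the chaperone of COX2, was at 0.143 and 0.0346 FPKM in control cells against 0.0436, 0.0882 and 0.0546 in 3-NP, or 3 to 13 reads. PET100 was at 0.360 and 0.303 FPKM in control cells against 0.119, 0.0966 and 0.0718 in 3-NP. PET117 was listed at 0.0467 and 0 FPKM in control cells against 0, 0 and 0.0931 in 3-NP, or 0 to 2 reads. The untested members share part of their exons with other genes. In GENCODE 29, 72% of the exon bases of COX20 lie opposite exons of HNRNPU, 62.4% of those of PET117 are shared on the same strand with KAT14, and 36.0% of those of COX16 with the readthrough gene SYNJ2BP-COX16. The share was 29.2% for UQCC3 and 16.9% for PET100. Shares of this size also occurred among tested members, with 29.2% for TIMMDC1, the member with the highest mean level, and 25.6% for COX15. The median share over either strand was 36.0% for the 5 untested members and 1.33% for the 40 tested. How the authors' counting treated reads in shared exons is not given in the sources used here, so these low values were not read as low expression, and the part of exon sharing in them was not tested. Among the tested members the share was highest for SCO2, at 83.9%, on the same strand with a second gene entry also named SCO2. The deposited data hold no value for that entry, and its part in the SCO2 values was not tested. The share was 42.5% for COA3, opposite WNK4, whose mean level was 0.0477 FPKM in control cells against 0.275 in 3-NP. It was 0% for TACO1 and COA7. For TMEM70 it was 11.5%, with the ribosomal protein pseudogene RPS20P21, for which the deposited data hold no value.

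The subunits that these factors assemble showed other medians. Over all genes tested 15.5% rose, 25.2% fell and the median was -0.11, with 5124 of 11858 changes above 0. Nuclear-encoded subunits of complex IV had changes above 0 in 11 of 11, with a median of 0.40, where 2 rose, COX7A2 (0.54, adjusted p = 0.0378) and COX7C (0.54, adjusted p = 0.0455), and none fell. The 18 tested complex IV assembly factors had a median of -0.21. With the gene length trend removed these medians were 0.37 and -0.08. The subunit median was 0.23 without control replicate 1. COX7A2 was called in 9 and COX7C in 8 of the 15 alternatives. Both calls were lost when either control, 3-NP replicate 2 or 3-NP replicate 3 was left out. They were also lost with the replicate number as a block and without a low-value filter, while all 11 subunits stayed above 0. In complex III the subunits had a median of 0.35, with UQCRC1 (0.59, adjusted p = 0.0283) and UQCRQ (0.57, adjusted p = 0.0427) higher and UQCR11 (-0.49, adjusted p = 0.0410) lower of 9, against -0.48 for the 5 assembly factors. This subunit median was 0.14 without control replicate 1 and 0.23 without 3-NP replicate 3. All 3 calls were lost when either control, 3-NP replicate 2 or 3-NP replicate 3 was left out. The same held with the replicate number as a block and without a low-value filter. In complex I, 2 of 30 tested subunits rose and 3 fell, and the median was 0.06 for the subunits, and -0.21 for the factors. The subunit median was -0.04 with equal FPKM totals, -0.11 without control replicate 1, 0.23 without control replicate 2 and -0.03 without 3-NP replicate 3. Among those that fell were NDUFS1 (-0.53, adjusted p = 0.0156), an iron-sulfur subunit that was not called with the gene length trend removed or without either control (0.129 and 0.0700), and NDUFC2 (-0.80, adjusted p = 0.00530), a membrane arm subunit whose exons a readthrough gene shares and whose adjusted p was 0.0552 without control replicate 1. None of the 14 tested subunits of complex V passed limma's test (0 with an unadjusted p under 0.05), with a median of 0.20, or -0.0045 without control replicate 1 and 0.34 without control replicate 2. Quantile normalization and removal of the gene length trend each called 1 higher. So did the fit with the replicate number as a block and that without 3-NP replicate 1, while limma-voom on worked-back reads called 0. None of the 13 mitochondrially encoded subunits passed either (0 with an unadjusted p under 0.05), with a median of -0.22. This median was -0.39 without 3-NP replicate 1, where 2 were called lower, and -0.09 without 3-NP replicate 3. Quantile normalization called 4 lower and limma-voom called 0. Differences between subunits and assembly factors were not tested.

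**Figure D3:**
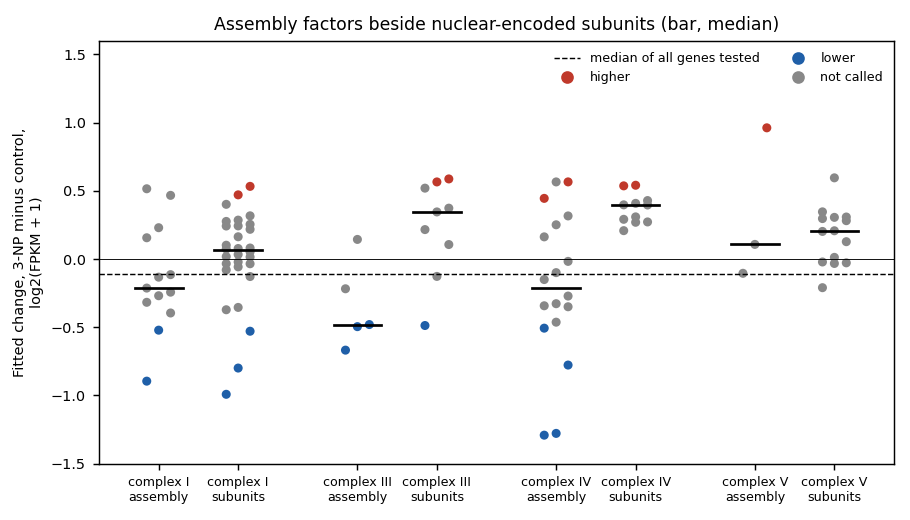
Fitted change, 3-NP minus control on the log2(FPKM + 1) scale, of each tested assembly factor and each tested nuclear-encoded subunit, by complex. Each point is a gene, red for higher, blue for lower and grey for not called, bars are medians, and the dashed line is the median of all genes tested at -0.11. All 11 complex IV subunits lie above 0, while 12 of the 18 complex IV assembly factors lie below it. Of all 11858 genes tested 5124 lie above 0. The split of the 18 factors depended on scaling. After quantile normalization 9 of them were above 0, and 8 with median-of-ratios scaling or with the gene length trend removed.

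Genes that supply or assist assembly were mixed as well. The shares over all genes tested were 15.5% higher and 25.2% lower. Of the 8 complex II subunits and assembly factors tested, 4 rose and none fell, and the member with the smallest p was the assembly factor SDHAF3 (0.88, adjusted p = 0.00591), followed by the subunits SDHD (0.66, adjusted p = 0.00921) and SDHA (0.69, adjusted p = 0.0145). Without control replicate 1 none of these 8 was called, and without control replicate 2 SDHAF3 was. Of 17 other assembly and supercomplex factors tested 3 rose and 2 fell. Of these COX7A2L, which joins complexes III and IV into supercomplexes, rose by 0.99 (adjusted p = 0.00500), while CEP89 (-0.89, adjusted p = 0.00321) and the complex I factor DMAC2 (-0.61, adjusted p = 0.0101) fell. In iron-sulfur cluster assembly 3 of 11 rose and 2 fell, among them ISCA2 (0.91, adjusted p = 0.00232) and GLRX5 (0.74, adjusted p = 0.0117) upward and NFU1 (-0.77, adjusted p = 0.00707) downward, with a median of 0.08, or -0.06 without control replicate 1. In coenzyme Q synthesis none of 12 rose and 2 fell, COQ7 (-0.78, adjusted p = 0.00560) and COQ9 (-0.45, adjusted p = 0.0445). COQ9 was called in 5 of 15 alternatives and not with the gene length trend removed or without either control (0.170 and 0.198). Of the 26 calls in the subunit and partner lists 4 remained without control replicate 1 and 8 without control replicate 2, and CEP89 and ISCA2 were among those called in every alternative.

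**Figure D4:**
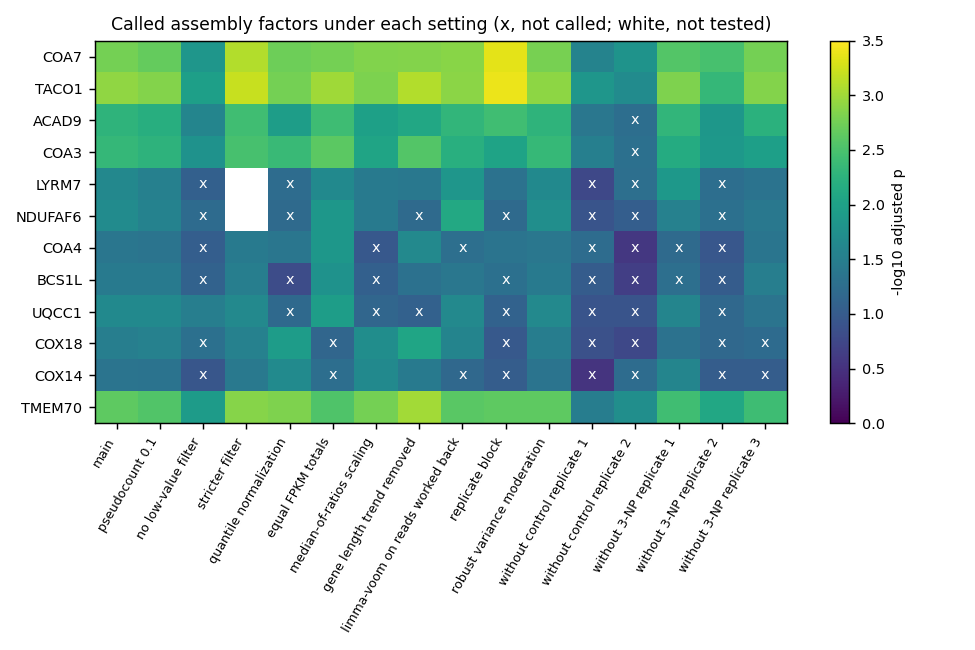
Adjusted p of the 12 called assembly factors (rows) under the main fit and 15 alternatives (columns), as -log10 of the adjusted p in colour. A white x marks an adjusted p of 0.05 or more, and white cells were not tested. COA7, TACO1 and TMEM70 carry no x, and ACAD9 and COA3 carry 1 each, without control replicate 2.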

How the data were processed

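RNA of 5 libraries (2 control, 3 3-NP) was extracted with TRIzol and made into libraries with a strand-specific mRNA kit, per the labels' protocols. Groups and replicate numbers came from the sample titles. Per the submitters' processing notes, bcl2fastq 2.17, Trimmomatic 0.39, HISAT2 2.1 and the build GRCh38 were used. No counter, annotation or strand setting is named (not given in the sources used here), so antisense and near-identical genes cannot be separated with certainty. The deposited values, 1 per Ensembl gene and library, were read as FPKM made by the authors, since the unit is not named in the files. Lengths were summed over merged exons of GENCODE 29; at depths found from them, 93.1% to 93.3% of nonzero values lay within 0.05 of a whole read, giving 17838000 to 18883000 reads. Symbols came from GENCODE 29.

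Values were transformed as log2(FPKM + 1) and fitted in limma 3.58.1 under R 4.3.3, letting the variance follow the mean. A gene entered if 2 libraries or more had 1 FPKM. No covariate besides group was used, which left 3 residual degrees of freedom. Benjamini-Hochberg adjustment ran over every gene tested. The plan had allowed for counts with another test, and FPKM called for this one. Where a control library was left out, the lone control was assumed to vary like the 3-NP libraries, and the same genes were tested. The fit was also run on simulated data with a fixed spread and few changed genes, unlike these libraries, so nothing is concluded from it. Values are given for every called member, for members not called with the smallest p or highest level in their complex, and for up to 3 called genes of each partner list; other members were named after their values were seen. The members, lists and alternatives were chosen with earlier results of these data known. FDX2, CD68, CD3E and DDX4 of the lists, and protein sequences, were not analysed here, and a further gene of the lists is not reported here by name.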

Additional observations from a re-analysis of the deposited data

How the results depend on the processing

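The signs of the 12 called members were the same in all 15 alternatives. Counts of members called higher and lower, 3 and 9 as reported, became 5 and 5 after quantile normalization. The number called higher was 1 without a low-value filter, 1 with equal FPKM totals, 6 with median-of-ratios scaling and 5 with the gene length trend removed. With 1 library left out the number of members called higher ranged from 1 to 6 and lower from 2 to 10. Over all genes the counts of 1842 higher and 2991 lower ranged from 783 to 2160 and from 1268 to 3082, lowest without control replicate 1, and no alternative that kept all 5 libraries moved them by more than 1.5 times. With the replicate number as a block, 1 member was higher and 7 lower; in that fit 3-NP replicate 3 is alone in its block and adds nothing to the change. The correlation of deviations between libraries with the same number was 0.157 for number 1 and -0.351 for number 2. With 2 controls the deviations of 1 mirror those of the other, so this cannot decide whether the numbers pair the libraries. With 2 control libraries the precision is limited, and members of 15 to 32 reads, such as SCO2, allow little to be seen.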
